A study of Mus musculus with 33 samples.

Results

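Transcripts of 9 genes that build or turn over the extracellular matrix were followed in kidneys of lupus-prone BWF1 (NZB X NZW F1) mice given an adenovirus that encodes mouse interferon-alpha (Adv-IFNα). The list was given by name but with earlier results of these data known, so its counts beside all probe sets are descriptive. The genes are 9 of the 17097 genes that the arrays name. They encode the matrix proteins tenascin-C (Tnc) and fibronectin (Fn1), the matrix metalloproteinases Mmp2 and Mmp14, the tissue inhibitors of metalloproteinases Timp1, Timp2 and Timp3, and the CCN proteins Ccn1 (also named Cyr61) and Ccn2 (also named Ctgf). The arrays carry 19 probe sets for them, and each gene was read through the probe set with the highest mean over all 33 arrays.

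Metalloproteinases cleave the proteins of the matrix, and TIMPs bind and block them, so that the balance of both classes sets how fast matrix is removed. Matricellular proteins such as tenascin-C and the CCN proteins are secreted into the matrix but act mainly as signals to cells, and their genes are known to be switched on in injured and scarring kidney. Tenascin-C is sparse in most adult tissue and reappears during repair, and fibronectin forms the first scaffold on which collagen is laid down.

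Each array held total RNA of 1 whole kidney. The groups were 3 kidneys of untreated BWF1 mice and 5 kidneys in each of 6 groups of BWF1 mice taken 1, 2, 3, 5, 7 or 9 weeks after Adv-IFNα. By the study's methods the mice were females injected intravenously at 9 weeks of age, with controls of matching age. The study's results give a slightly younger age at injection. Neither age nor collection week is labelled for the untreated mice, and no group was labelled as given an empty virus. All 33 mice share the lupus-prone cross, so the effects of vector, interferon and ageing cannot be told apart, and in a whole kidney fewer cells of a type and less RNA per cell cannot be told apart either. Levels are log2 values after robust multi-array average (RMA) normalization, so that a difference of 1 is a 2-fold change. They are given per probe set and were not compared between genes. The spread is that between separate mice. The study describes 2 independent longitudinal experiments, and the labels do not say to which of them an array belongs, so a difference between experiments cannot be told apart from the groups here.

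Array medians lay between 3.97 and 4.10, and the correlation between any pair of arrays was between 0.965 and 0.994, with no array deposited more than once. The tubule gene Umod, which encodes uromodulin, lay at the 99.4th percentile of all probe sets, as fits kidney. The log2 ratio of the 3′ to the 5′ probe set of beta-actin is a sign of RNA quality. It was 1.57 ± 0.158 (SD, n = 3) in untreated kidneys and 1.95 ± 0.112 (SD, n = 30) in treated kidneys, an exact permutation p of 3.67e-04 (two-sided). It lay between 1.47 and 1.75 in untreated kidneys and between 1.68 and 2.03 at week 1. The range was 1.79 to 2.13 at week 7 and 1.94 to 2.19 at week 9. In 29 of the 30 treated kidneys the ratio lay above the highest untreated value, so it is nearly confounded with treatment. The part of this ratio in the results was not tested beyond the fits that carry it as a covariate. The same log2 ratio for Gapdh differed by 0.00822 (exact permutation p = 0.885). In 3 arrays the mean level of 3 adrenal cortex markers (Cyp11b1, Star and Cyp21a1) stood apart. These were replicates 1 and 4 of week 1 (5.94 and 8.92) and replicate 4 of week 2 (8.68), while no other array lay outside 3.96 to 4.36. Counts of members passing at each week against untreated kidneys are therefore given with and without these 3 arrays. So are those for week 9 against week 1 and for weeks 7 and 9 against weeks 1 to 3. This choice was made after the data were seen. The F test, the counts without overlap, the pair tests and the comparisons between weeks 1, 2 and 3 are given with all arrays only.

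Promoters were available for Tnc (2 start sites), Timp1, Timp2, Timp3, Mmp14 and Ccn1 among the RefSeq promoters of build GRCm38.p6, and the 250 bases before each start were searched. The sequences of Ccn1 and Timp1 are shown because both transcripts rose and both windows hold the letters GGAATG, the core bound by TEAD proteins, through which the coactivator YAP acts. Timp3 is shown beside them as the inhibitor that was lower in late than in early kidneys. They are written 5′ to 3′ along the gene, with matches to a searched motif in capitals.

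Ccn1 chr3:145649986-145650235 (- strand): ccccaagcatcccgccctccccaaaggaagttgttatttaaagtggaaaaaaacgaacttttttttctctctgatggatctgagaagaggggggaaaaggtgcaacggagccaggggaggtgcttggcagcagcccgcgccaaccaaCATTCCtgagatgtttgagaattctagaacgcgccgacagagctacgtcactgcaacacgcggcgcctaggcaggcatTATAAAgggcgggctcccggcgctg

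Timp1 chrX:20869916-20870165 (+ strand): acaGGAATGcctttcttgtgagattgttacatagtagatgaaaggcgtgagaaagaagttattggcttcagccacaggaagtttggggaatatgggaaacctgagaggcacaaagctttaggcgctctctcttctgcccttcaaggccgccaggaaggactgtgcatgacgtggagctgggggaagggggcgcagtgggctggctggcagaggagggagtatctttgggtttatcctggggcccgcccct

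Timp3 chr10:86300162-86300411 (+ strand): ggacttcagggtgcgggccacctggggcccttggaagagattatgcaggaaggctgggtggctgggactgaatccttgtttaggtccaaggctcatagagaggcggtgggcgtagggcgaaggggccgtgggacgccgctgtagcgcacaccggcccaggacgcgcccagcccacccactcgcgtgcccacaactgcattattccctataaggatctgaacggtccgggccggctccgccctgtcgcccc

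The Ccn1 window holds the TEAD letters on the opposite strand, as CATTCC, from 103 bases before the start, and the letters TATAAA of a TATA box from 25 bases before it. The Timp1 window holds GGAATG from 247 bases before the start. Neither Tnc window holds GGAATG on either strand, although Tnc also rose. Both Tnc windows hold TATAAA, from 126 and 205 bases before their starts. The windows of Timp2, Timp3 and Mmp14 hold neither motif. Among all 32851 promoter windows of the same length, 12.6% hold GGAATG on either strand and 7.59% hold TATAAA on the given strand. The AP-1 letters TGANTCA (6.75% of all windows), the STAT letters TTCNNNGAA (7.02%), the interferon-stimulated response element (2.98%) and the CArG box (1.47%), each read on both strands, were in none of the member windows searched. No motif overlapped another in the windows shown. Each match is a description of the letters only.

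No member passed the test against untreated kidneys through the first 5 weeks. In limma's fit over all probe sets, with Benjamini-Hochberg adjustment, 0 of 9 passed an adjusted p of 0.05 against untreated kidneys at weeks 1, 2, 3 and 5. Of all 45037 probe sets, 1.43%, 1.33%, 1.38% and 2.96% passed at those weeks. At an unadjusted p of 0.05 the counts of members were 0, 0, 0 and 1, the last being Tnc at week 5. Without the 3 arrays high in adrenal markers the count was again 0 at each of these weeks. The 95% interval of Tnc at week 5 ran from 0.07 to 1.49, so a p above the threshold does not show that levels were equal. At week 7, 7 of 9 were higher and none was lower, beside 15.7% of all probe sets that passed and 9.85% that passed as higher. The members' median change was 1.20 on the log2 scale, against 0.02 over all probe sets. At week 9, 6 of 9 were higher and none was lower, beside 13.9% of all probe sets passing and 6.41% passing as higher, with a median of 1.28 against -0.06. At both weeks 5 members also exceeded a 2-fold change upwards (Tnc, Fn1, Timp1, Mmp2 and Ccn1), beside 2.35% and 1.98% of all probe sets.

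The step lay between weeks 5 and 7. Between week 5 and week 7, 6 of 9 members rose, beside 8.49% of all probe sets that passed and 4.72% that passed as higher. No member passed in the comparisons of week 2 with week 1, week 3 with week 2, week 5 with week 3 or week 9 with week 7, in which 0.0999%, 0.0111%, 0.0155% and 0.0688% of all probe sets passed, and 0, 1, 1 and 0 members had an unadjusted p under 0.05. Over all 7 groups, the F test called 8 of 9 members (19.2% of all probe sets), with Mmp14 at an adjusted p of 0.207. With the 10 kidneys of weeks 7 and 9 set against the 15 of weeks 1 to 3, 8 members were higher and Timp3 was lower. In that comparison 20.6% of all probe sets passed, 11.2% as higher and 9.41% as lower. The same 9 were called whichever 1 of those 25 arrays was left out, and also without the 3 arrays high in adrenal markers.

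**Figure D1:**
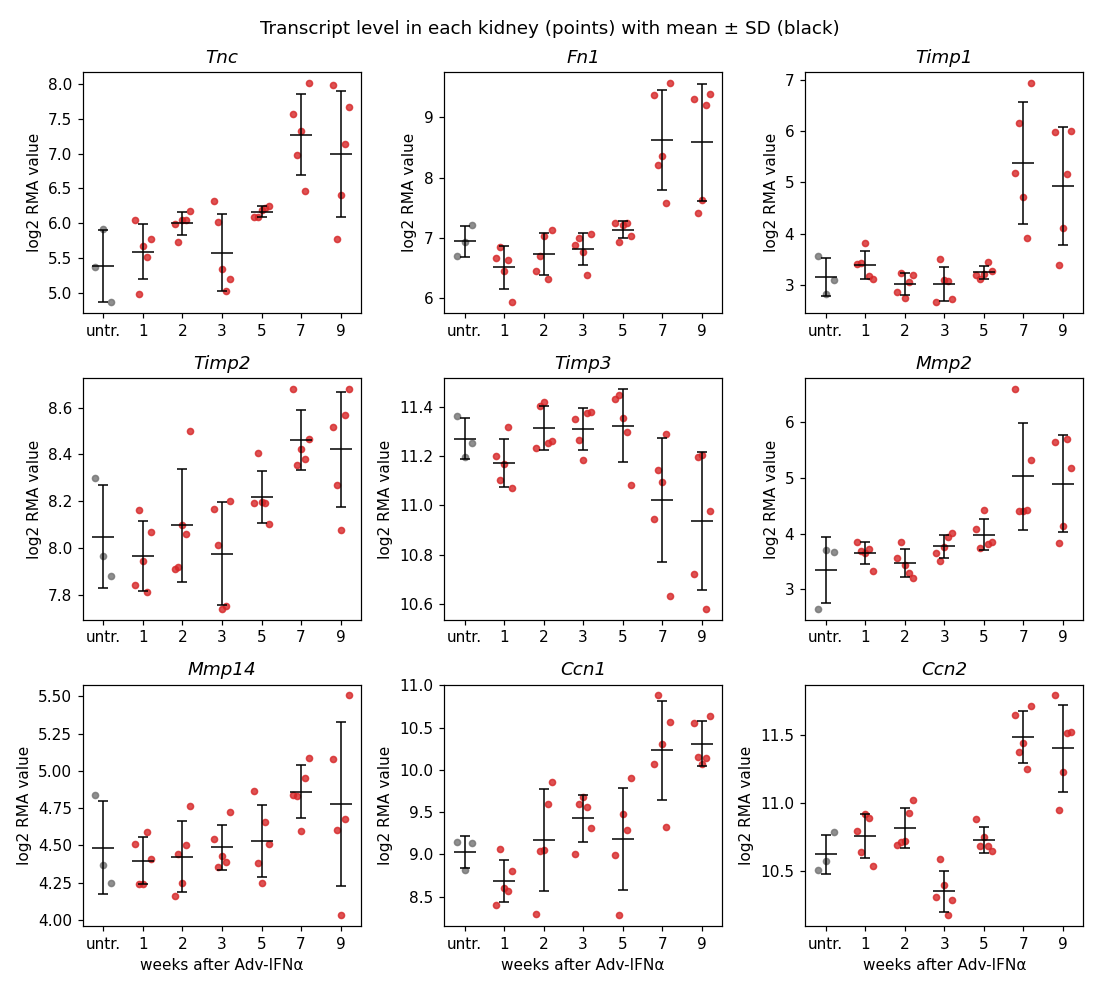
Level of each of the 9 transcripts (log2 RMA value of its representative probe set, vertical axes on separate scales) in every kidney by weeks after Adv-IFNα, with untreated kidneys in grey and treated kidneys in red; black bars are the mean ± SD of 3 untreated kidneys or 5 kidneys per week. Tnc, Fn1, Timp1, Mmp2, Ccn1 and Ccn2 step up at week 7, with a wide spread at weeks 7 and 9 for the first 4.

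Tenascin-C and fibronectin, the matrix proteins of the set, both rose about 3-fold. Tnc was 5.38, 5.91 and 4.87 in the untreated kidneys. It was 6.10, 6.09, 6.19, 6.22 and 6.25 at week 5, then 7.57, 6.99, 7.33, 6.47 and 8.02 at week 7 and 7.98, 5.77, 6.41, 7.14 and 7.68 at week 9. All kidneys of week 7 lay above every untreated kidney and every week 5 kidney, whereas 1 kidney of week 9 lay inside the untreated range. The change against untreated was 1.89 ± 0.349 (SE) at week 7 (3.71-fold, adjusted p = 3.0e-04 by limma) and 1.61 ± 0.349 at week 9 (3.06-fold, adjusted p = 0.00212). The week 9 call was lost once the beta-actin ratio was added to the model (change 1.39, adjusted p = 0.109). At week 5 the change was 0.78 (1.72-fold, adjusted p = 0.235), although all 5 kidneys lay above the 3 untreated ones. Tnc and Mmp2 (0.64, 1.55-fold, adjusted p = 0.392) were the 2 members of which this held at week 5, beside 4.9% of all probe sets. A dim second probe set of Tnc, at the 4.7th percentile of all probe sets, changed by 0.14 at week 7 and 0.05 at week 9, with adjusted p values of 0.571 and 0.864.

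Fn1 was 6.70, 6.94 and 7.21 in untreated kidneys and 6.67, 6.85, 6.45, 6.64 and 5.94 at week 1. It was 9.38, 8.22, 8.36, 7.59 and 9.57 at week 7, and 9.30, 7.42, 7.63, 9.20 and 9.38 at week 9. No late kidney overlapped any untreated or early one, and Fn1 was the single member for which all 10 kidneys of weeks 7 and 9 lay above all 15 of weeks 1 to 3, beside 0.484% of all probe sets. The change against untreated was 1.67 ± 0.367 (SE) at week 7 (3.19-fold, adjusted p = 0.00169) and 1.64 ± 0.367 at week 9 (3.11-fold, adjusted p = 0.00285). Against week 1, with 5 kidneys on each side, Fn1 at week 9 was higher by 2.07 ± 0.318, or 4.21-fold (adjusted p = 6.99e-05). The mean at week 1 (6.51) was below that of the untreated kidneys (6.95), by a difference that did not pass (adjusted p = 0.649).

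Of the 2 metalloproteinases, Mmp2 rose and Mmp14 moved little. Mmp2 encodes gelatinase A, which degrades type IV collagen and denatured collagens. Its levels were 2.66, 3.71 and 3.68 in untreated kidneys, 6.59, 4.40, 4.40, 4.42 and 5.33 at week 7, and 5.65, 3.83, 4.14, 5.70 and 5.17 at week 9. All late kidneys lay above the untreated ones, although the lowest of week 9 did so by little and 1 untreated kidney stood well below the other two. That kidney lay under the highest of the control probe sets for nonspecific binding (3.25), which Mmp2 exceeded in 31 of 33 arrays, so its untreated level is near the floor of the array. The changes were 1.68 ± 0.373 (SE) at week 7 (3.21-fold, adjusted p = 0.00185) and 1.55 ± 0.373 at week 9 (2.93-fold, adjusted p = 0.00503). Without that untreated kidney (replicate 1) the week 9 change was 1.21, with an adjusted p of 0.0621. With that ratio in the model neither week passed (adjusted p = 0.0559 and 0.135). Against week 5, Mmp2 at week 7 was higher by 1.05 (adjusted p = 0.0379), and by 0.66 (adjusted p = 0.19) without week 7 replicate 1, the kidney at 6.59. That call was lost in 6 of 10 fits with 1 array left out, the others being those without week 5 replicate 1, 2, 4 or 5 or week 7 replicate 5.

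Mmp14 encodes a membrane-bound metalloproteinase that activates pro-MMP2 together with TIMP2. It was 4.84, 4.37 and 4.25 in untreated kidneys, 4.84, 4.83, 4.60, 4.95 and 5.08 at week 7, and 5.08, 4.60, 4.03, 4.68 and 5.51 at week 9. Treated and untreated kidneys overlapped at both weeks. The change was 0.38 at week 7 (95% interval -0.03 to 0.78, adjusted p = 0.218) and 0.29 at week 9 (95% interval -0.11 to 0.70, adjusted p = 0.351). The week 9 change was 0.11 without replicate 5 of that week and 0.48 without replicate 3. With all 10 late kidneys against the 15 of weeks 1 to 3 it was higher by 0.38 ± 0.112 (1.30-fold, adjusted p = 0.0117). A dim second probe set at the 18th percentile went the other way at week 7 against untreated, by -0.34 (adjusted p = 0.0484), and by 0.09 (adjusted p = 0.382) in the late against early comparison. The late rise of Mmp14 therefore rests on 1 of its 2 probe sets.

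The 3 inhibitors behaved differently from one another. Timp1, the inducible member of the family, had the largest change of the 9 genes at week 7. It was 3.57, 2.82 and 3.10 in untreated kidneys and 3.19, 3.11, 3.22, 3.45 and 3.28 at week 5. At week 7 it was 5.18, 6.16, 4.72, 3.91 and 6.94, and at week 9 it was 5.98, 3.40, 4.11, 5.16 and 6.0. Every kidney of week 7 exceeded all untreated and all week 5 kidneys, and 4 of 5 did at week 9. The change against untreated was 2.22 ± 0.451 (SE) at week 7 (4.66-fold, adjusted p = 8.23e-04) and 1.77 ± 0.451 at week 9 (3.41-fold, adjusted p = 0.00802). The 23 control probe sets for nonspecific binding ran up to 3.25, and Timp1 lay above that value in 17 of 33 arrays, 1 of them untreated. Its untreated level is thus close to the floor of the array, where changes are compressed. The spread was 0.124 (SD, n = 5) at week 5 and 1.19 (SD, n = 5) at week 7.

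Timp2 encodes an inhibitor with a largely steady expression. It was 8.30, 7.97 and 7.88 in untreated kidneys, 8.68, 8.36, 8.42, 8.38 and 8.46 at week 7, and 8.52, 8.27, 8.08, 8.57 and 8.68 at week 9. Kidneys of week 7 lay just above the untreated ones, and those of week 9 overlapped them. The change at week 7 was 0.41 ± 0.144 (SE, 1.33-fold, adjusted p = 0.0474) and at week 9 it was 0.37 (adjusted p = 0.0787). The week 7 call was lost in 6 of 8 fits with 1 array left out, those without untreated replicate 2 or 3 or week 7 replicate 1, 2, 3 or 5, with adjusted p values from 0.0515 to 0.21. The late against early difference was 0.43 ± 0.0803 (adjusted p = 1.3e-04). The other 4 probe sets of Timp2 changed by -0.12, 0.53, 0.64 and 0.25 at week 7 and by 0.56, 0.75, 0.68 and 0.23 at week 9, so that they disagreed in sign at week 7 and not at week 9. Of them, only that at 0.64 passed at week 7 (adjusted p = 0.0182), and those at 0.75 and 0.68 passed at week 9 (adjusted p = 0.0124 and 0.0147). The mean of all Timp2 probe sets changed by 0.34 at week 7 (adjusted p = 0.0642) and by 0.52 at week 9 (adjusted p = 0.00602). The representative probe set carries the suffix _s_at, which marks probes shared by several transcripts.

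Timp3 encodes the inhibitor that binds tightly to the matrix and is abundant in kidney. It was 11.36, 11.20 and 11.26 in untreated kidneys, 10.95, 11.14, 11.10, 11.29 and 10.63 at week 7, and 10.72, 11.20, 11.20, 10.58 and 10.98 at week 9. At each week 4 of 5 kidneys lay below all untreated ones, although 1 of week 9 did so by almost nothing (11.1956 against 11.1973). The change was -0.25 (adjusted p = 0.212) at week 7 and -0.34 (adjusted p = 0.0849) at week 9, so neither passed, although week 9 passed without its replicate 2 or 3 (adjusted p = 0.0392 and 0.0402). Between the early and late kidneys it fell by 0.29 on the log2 scale ± 0.0737 (SE, 0.82-fold, adjusted p = 0.00407). All 4 probe sets of Timp3 passed in that direction, the largest at -0.67 (adjusted p = 5.65e-05).

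Differences of change within the families were tested directly in each kidney, by an exact permutation test (two-sided) over 5 against 5 kidneys that can give no p below 0.00794, for 6 pairs in 2 comparisons, 12 tests in all. From week 5 to week 7, Timp1 rose by 1.89 more than Timp2 and by 2.43 more than Timp3, and Timp2 changed by 0.54 more than Timp3 (each exact p = 0.00794, adjusted p = 0.0238). From week 1 to week 9 the same differences were 1.08, 1.77 and 0.69, with adjusted exact permutation p values of 0.0741, 0.0544 and 0.0544. For Mmp2 less Mmp14 they were 0.71 (adjusted exact p = 0.139) and 0.87 (adjusted exact p = 0.0544). Tnc less Fn1 gave -0.38 and -0.67 (adjusted exact p = 0.0741 and 0.0952). These pairs were chosen after the members' values were seen.

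**Figure D2:**
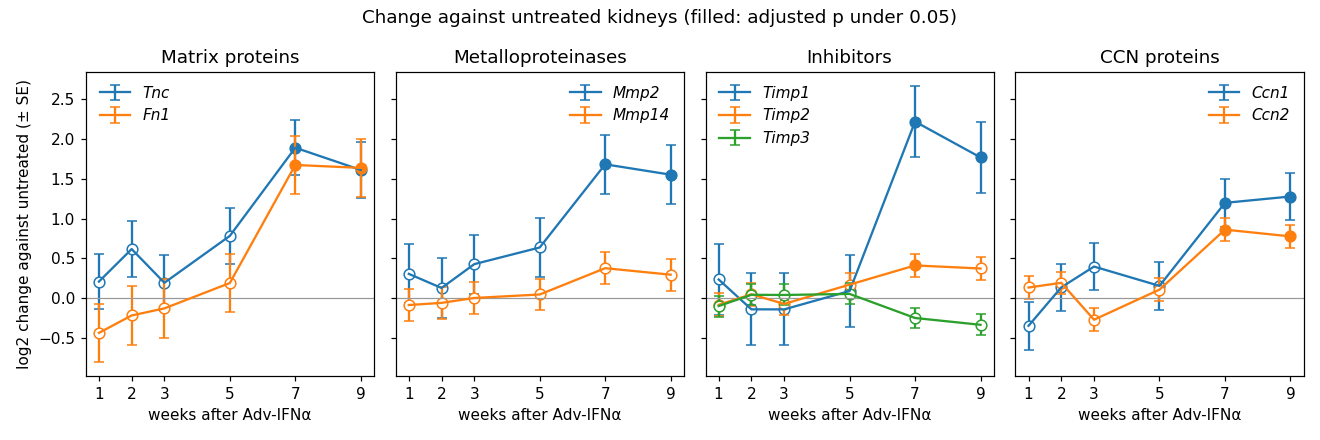
Change against the 3 untreated kidneys on the log2 scale (vertical axis, bars are ± SE of limma's fit) at each week after Adv-IFNα (horizontal axis), with the members in families; filled points passed an adjusted p of 0.05 and open points did not. Timp1 reaches 2.22 at week 7 while Timp3 lies at -0.25, and Mmp2 lies above Mmp14.

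Ccn1 and Ccn2, secreted integrin-binding proteins whose genes respond quickly to mechanical and growth signals, both rose at weeks 7 and 9. Ccn1 was 9.15, 8.81 and 9.14 in untreated kidneys and 8.40, 9.06, 8.60, 8.57 and 8.80 at week 1. It was 10.07, 10.88, 10.31, 9.33 and 10.57 at week 7 and 10.56, 10.15, 10.07, 10.14 and 10.64 at week 9. No kidney of either late week overlapped the untreated ones, and the spread was 0.266 (SD, n = 5) at week 9 and 0.587 (SD, n = 5) at week 7. The change was 1.20 ± 0.299 (SE) at week 7 (2.29-fold, adjusted p = 0.00521) and 1.28 ± 0.299 at week 9 (2.42-fold, adjusted p = 0.0041). A second probe set gave 1.28 and 1.23, with adjusted p values of 0.0127 and 0.0193. The representative carries the suffix _x_at, which marks probes that may also bind other transcripts. At weeks 2 and 5 the kidneys differed widely from one another, from 8.30 to 9.86 and from 8.28 to 9.90.

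Ccn2 was 10.51, 10.57 and 10.78 in untreated kidneys. It was 11.65, 11.37, 11.44, 11.25 and 11.71 at week 7, and 11.79, 10.95, 11.23, 11.51 and 11.52 at week 9. Neither late week overlapped the untreated kidneys. The change was 0.86 ± 0.141 (SE) at week 7 (1.82-fold, adjusted p = 7.59e-05) and 0.78 ± 0.141 at week 9 (1.71-fold, adjusted p = 3.83e-04). It had the smallest adjusted p of the 9 members at both weeks with a change under 2-fold, beside spreads of 0.191 and 0.32 (SD, n = 5). At week 3 it was 10.31, 10.59, 10.40, 10.18 and 10.28, below all 5 kidneys of week 2 (10.69, 10.72, 10.72, 10.93 and 11.02). Ccn2 was the 1 member lower without overlap in that comparison, beside 0.395% of all probe sets, but the difference of -0.46 did not pass (adjusted p = 0.659). From week 1 to week 9 Ccn1 rose by 0.98 more than Ccn2 (exact permutation p = 0.00794, adjusted p = 0.0238), and from week 5 to week 7 by 0.29 more (adjusted exact p = 0.468). The pair tests used all arrays, and week 1 replicates 1 and 4 were high in adrenal markers. Between weeks 1 and 9 the changes of Ccn1 and Ccn2 were 1.63 and 0.64. They were 1.49 and 0.70 without the 3 arrays high in adrenal markers.

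Counted over the set, 7 members at week 7 and 4 at week 9 had every kidney above every untreated kidney, beside 9.06% and 5.96% of all probe sets. Against week 1, week 9 had 7 members called as higher (9.28% of all probe sets passed, 4.64% as higher) and 3 without overlap (Fn1, Ccn1 and Ccn2, beside 3.03%). Without the 3 arrays high in adrenal markers 5 were called, Timp1 (adjusted p = 0.0611) and Timp2 (adjusted p = 0.155) having missed the threshold. From week 5 to week 7, 4 were without overlap (Tnc, Fn1, Timp1 and Ccn2, beside 2.64%). The calls at week 9 depend on a spread shared by all groups. When only the week 9 and untreated arrays entered the fit, Ccn1 and Ccn2 stayed called (adjusted p = 0.00292 and 0.0356) and Fn1, Tnc, Mmp2 and Timp1 lay just outside (adjusted p = 0.0514, 0.0531, 0.0567 and 0.0685). In the same fit at week 7, 5 members passed, and Mmp2 (adjusted p = 0.0557) and Timp2 (adjusted p = 0.136) did not.

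The late kidneys were not alike. At week 7, replicate 4 was the lowest of its week for 5 of the 6 transcripts that had passed at both late weeks (Tnc, Fn1, Timp1, Ccn1 and Ccn2), and its mean deviation from untreated over these 6 was 0.74. The other 4 kidneys of that week had mean deviations from 1.34 to 2.27. At week 9, replicate 2 was the lowest for 5 of the 6 (all but Ccn1), with a mean deviation of 0.50. Replicate 3 of week 9 came next at 0.85, and the other 3 kidneys lay between 1.73 and 2.13. Timp3 ran the other way in these kidneys. It deviated from its untreated mean by 0.02 in week 7 replicate 4 and by -0.08 and -0.07 in week 9 replicates 2 and 3, against -0.64 in week 7 replicate 5, which had the highest Timp1. Ccn1 did not follow the pattern at week 9, where the same 2 kidneys deviated by 1.11 and 1.04 beside 1.11 to 1.60 in the other 3.

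Markers of injured tubule differed among the same kidneys. Havcr1, which encodes kidney injury molecule 1, was 7.54 in week 7 replicate 4 and 9.45 to 10.83 in the rest of that week. It was 8.46 and 8.43 in week 9 replicates 2 and 3 and 9.94 to 10.53 in the rest. Lcn2, which encodes lipocalin 2, was 4.30, 4.82 and 5.90 in these 3 kidneys and between 8.53 and 9.94 in the other 7. Col1a1, a chain of type I collagen, was 7.20, 6.79 and 7.28 in the 3 kidneys and at least 8.69 in each of the others. Whether these 3 mice were less ill is not given by the labels.

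**Figure D3:**
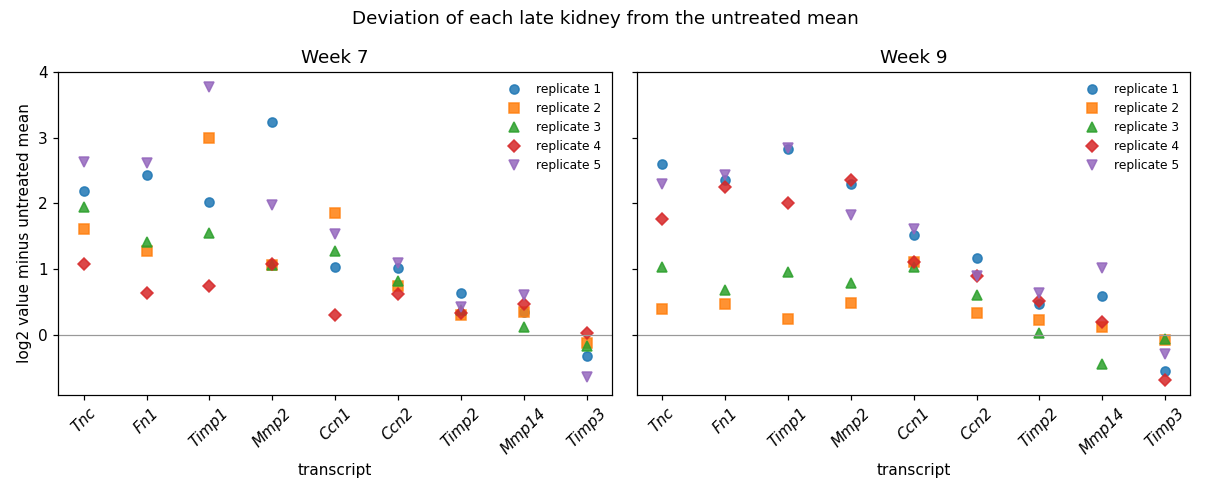
Deviation of each kidney from the untreated mean (log2, vertical axis) for the 9 transcripts (horizontal axis) at week 7 (left) and week 9 (right), with 1 symbol per kidney. Week 7 replicate 4 and week 9 replicates 2 and 3 lie low for Tnc, Fn1 and Timp1 and near 0 for Timp3, while all 5 kidneys of week 9 lie between 1.04 and 1.60 for Ccn1.

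The makeup of the kidneys also moved at the late weeks, as far as markers show it, and its part in the members' changes was not tested. Beside the counts of markers, 15.7% of all probe sets passed at week 7 and 9.85% passed as higher. At week 9 these shares were 13.9% and 6.41%. Of 8 macrophage markers, 7 were higher at both week 7 and week 9, with a median change of 2.02 at week 9. Their mean level was 4.02 to 4.14 in the untreated kidneys, 4.60 to 4.80 at week 1, 4.90 to 5.71 at week 5, 5.06 to 6.29 at week 7 and 5.48 to 6.88 at week 9. The range at week 1 thus lay above the untreated one, and those at weeks 7 and 9 lay above that of week 1. All 6 markers of injured tubule were higher at week 7 and 5 of 6 at week 9, with a mean level of 5.21 to 5.67 in untreated kidneys, 5.46 to 5.86 at week 5 and 6.15 to 8.70 at week 9. Of 5 proximal tubule markers, 4 were lower at week 7 and 2 at week 9, with a mean level of 9.74 to 9.90 in untreated kidneys and 8.75 to 9.80 at week 9. Of 6 distal nephron markers, 3 were lower at week 7, and 2 were lower and 1 higher at week 9. Their mean level was 8.46 to 8.60 in untreated kidneys, 7.49 to 8.44 at week 7 and 7.45 to 8.46 at week 9, and Pvalb, which encodes parvalbumin, was lower at week 9 by -2.83 (adjusted p = 0.00278). Of 5 fibroblast markers, Col14a1 was higher (1.86) and Gli1 lower (-0.48) at week 9, and Pdgfra, a defining marker, changed by 0.54 (adjusted p = 0.167). None of 3 pericyte and mesangium markers passed at week 7 or week 9. Of 5 T cell markers 2 were higher at week 9, of 3 B and plasma cell markers the plasma cell gene Jchain (3.81), and of 6 endothelial markers 2 were lower. None of 5 podocyte markers passed at week 9, and 1 of 5 neutrophil markers was lower. Of 2 erythroid markers measured, Alas2 was higher at week 9 by 1.21 (adjusted p = 0.0208). With 1 array left out, the week 9 calls of Gli1 and Alas2 were lost in 5 and 2 of 8 fits. Those of the proximal tubule marker Slc13a3, the T cell marker Cd3d and the neutrophil marker S100a8 were lost in 6, 4 and 4. For the endothelial markers Kdr and Tie1 and the higher distal nephron marker Umod the counts were 4, 1 and 3. None of the markers is listed at a value of 0.

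Other genes of matrix turnover were read from lists, and the counts that follow are of genes with an adjusted p under 0.05 against untreated. Beside each list, 15.7% of all probe sets passed at week 7 and 9.85% passed as higher. At week 9 these shares were 13.9% and 6.41%. Among 13 other metalloproteinases, 3 were higher at week 7 and 2 at week 9, with median changes of 0.13 and 0.07. Mmp10, which encodes stromelysin 2, had the largest change of the list at both weeks. It was 3.21, 3.35 and 2.66 in untreated kidneys and 6.15, 4.85, 6.69, 4.04 and 6.12 at week 7, without overlap. At week 9 it was higher by 2.54 (adjusted p = 3.04e-04), and Mmp12, the macrophage elastase, by 1.24 (adjusted p = 0.0275). The Mmp12 levels at week 9 were 5.14, 1.80, 2.81, 2.00 and 2.91, beside 1.69, 1.64 and 1.75 in untreated kidneys. Only the first exceeded the highest nonspecific control, and without it the change was 0.69. The call was lost in 4 of 8 fits with 1 array left out. Mmp9, which encodes gelatinase B, changed by -0.03 and 0.17 (adjusted p = 0.937 and 0.532). The membrane-anchored proteinases of the ADAM family and the secreted ADAMTS proteinases had 9 of 14 higher at week 7 and 8 of 14 at week 9 with medians of 0.50 at both. Adamts4 (2.02, adjusted p = 0.0027) and Adamts1 (1.25, adjusted p = 0.00565), which cleave aggrecan and versican, and Adam12 (1.20, adjusted p = 0.0087) had the largest changes at week 9. Of 2 other inhibitors measured, Reck, a membrane-anchored inhibitor, was higher at week 9 by 0.87 (adjusted p = 0.0153). Its change was already 0.83 at week 1 (adjusted p = 0.0804) and 1.01 at week 3 (adjusted p = 0.0241), and week 9 differed from week 1 by 0.04 (adjusted p = 0.944). Without untreated replicate 3, the week 9 calls of Adam12 and Reck were lost (adjusted p = 0.0916 and 0.182).

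Among 15 other matricellular genes, 4 were higher at week 7 and 3 at week 9, none was lower, and the medians were 0.25 and 0.21. Thbs2, which encodes thrombospondin 2, was higher by 1.53 (adjusted p = 3.34e-05) and Sparc, which encodes the collagen-binding protein osteonectin, by 0.81 (adjusted p = 2.85e-04) at week 9. Thbs2 had already passed at week 3 (1.02, adjusted p = 0.0125) and week 5 (1.45, adjusted p = 1.84e-04). Postn, which encodes periostin, changed by 0.36 and 0.39 (adjusted p = 0.43 and 0.377). Of 3 other members of the CCN family, Ccn4 was higher at week 7 by 0.83 (adjusted p = 0.034), a call lost in 6 of 8 fits with 1 array left out. Ccn3 changed by 0.25 (adjusted p = 0.354) and Ccn5 by -0.35 (adjusted p = 0.223). The values of Spp1 and Thbs1 were not analysed here. Collagens and the proteins that bundle or cross-link them were higher in 13 of 20 genes at each week, with medians of 1.17 and 1.04. Col1a1 was higher at week 9 by 2.42, Col3a1 by 2.17, Lox by 1.89 and Col6a3 by 1.71. Col6a3 had passed at week 5 as well (1.14, adjusted p = 0.0491). Col1a2 and Fbn2 changed by 0.16 and -0.05 at week 9 (adjusted p = 0.587 and 0.876), and the Col1a2 probe set is dim, at the 3.6th percentile.

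Receptors and proteinases that act on the members were next. Among 10 receptors of fibronectin and tenascin, 4 were higher at week 7 and 3 at week 9. Itga4, the alpha subunit of an integrin carried by leukocytes, was higher by 1.38 and Itgb3 by 1.06 at week 9, whereas Itga5, which encodes the alpha subunit of the classical fibronectin receptor, changed by -0.07 (adjusted p = 0.834). Both Itga4 (1.66, adjusted p = 0.00127) and Itgb3 (0.91, adjusted p = 0.0383) had passed at week 5, and Itga4 rose between weeks 3 and 5 (adjusted p = 0.0123). Of 7 genes of the plasminogen system, 3 were higher at each week (Anxa2, Plaur and S100a10), and Plg, which encodes plasminogen, was lower at week 9 by -0.59 (adjusted p = 0.0482). With 1 array left out, the week 9 calls of Plaur and S100a10 were each lost in 5 of 8 fits and that of Plg in 6 of 8. Plat and Plau, which encode the plasminogen activators, changed by 0.34 and -0.07 (adjusted p = 0.259 and 0.847).

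Genes of the TGF-beta pathway, YAP target genes and immediate early genes gave the following counts. Their part in the members' changes was not tested. Of 11 genes of the TGF-beta pathway, 8 were higher at each week, with medians of 0.71 and 0.58. The TGF-beta induced matrix protein Tgfbi was higher by 2.19 (adjusted p = 1.55e-05) and the receptor Tgfbr2 by 0.87 at week 9, whereas the ligand Tgfb1 changed by 0.31 (adjusted p = 0.34). Tgfbi had passed at week 5 (1.42, adjusted p = 0.00685). Acta2, smooth muscle actin, was higher by 1.04 at week 7 (adjusted p = 0.00285) and changed by 0.51 at week 9 (adjusted p = 0.159). Of 20 YAP target genes other than the 2 members, 10 were higher and 1 lower at week 7, and 5 were higher and none lower at week 9. Ankrd1, the one with the largest change, was higher by 3.04 and 2.74 (adjusted p = 6.76e-05 and 3.36e-04). Amotl2 was higher at week 7 by 0.93 (adjusted p = 1.78e-04) and changed by 0.26 at week 9 (adjusted p = 0.313). Of 16 immediate early genes, 5 were higher at each week, with medians of 0.38 and 0.61, led by Egr2 (2.43) and Ier3 (1.37) at week 9.

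**Figure D4:**
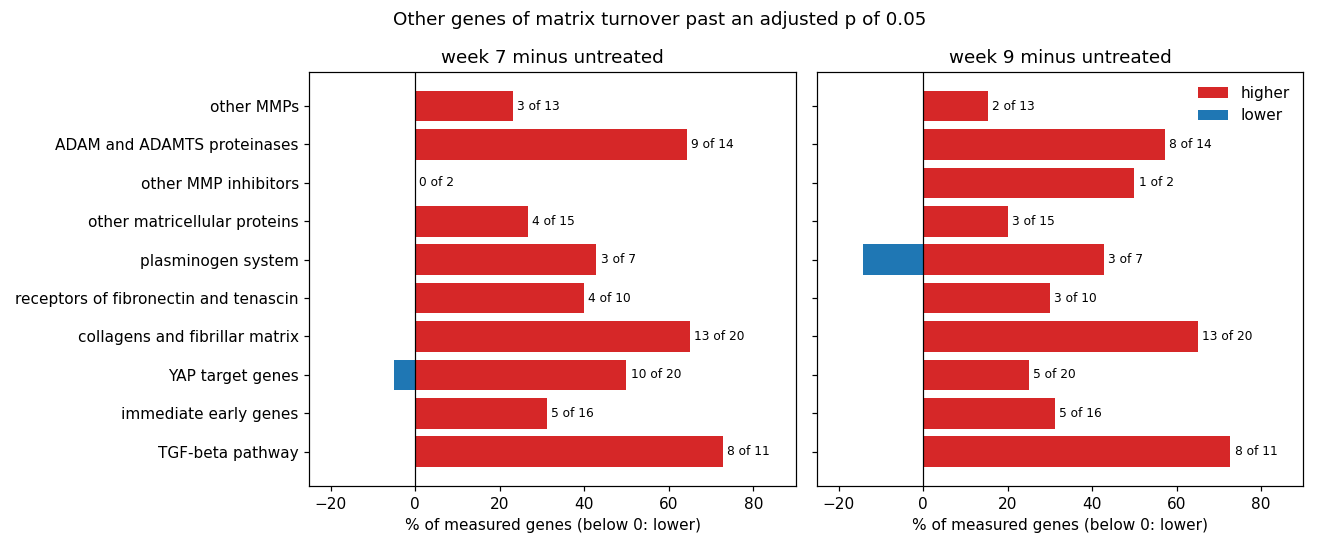
Share of measured genes of each list (percent, horizontal axis) that passed an adjusted p of 0.05 as higher (red) or lower (blue, left of 0) than in the 3 untreated kidneys at week 7 (left) and week 9 (right), with the count of higher genes beside each bar. The counts are 13 of 20 collagen and fibril genes and 8 of 11 TGF-beta pathway genes at each week, and 3 of 13 and 2 of 13 other metalloproteinases. Of all probe sets, 9.85% passed as higher at week 7 and 6.41% at week 9.

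The genes whose course was most like that of a member were sought for the 6 members whose group means spanned more than 1. Likeness was the mean absolute difference between 2 genes' log2 deviations from their untreated means over the 30 treated arrays, so that it rewards a similar size as well as a similar course. Nearest to Tnc were Fcgr3 (0.303), Anxa2 (0.309) and Slc25a24 (0.318). Nearest to Fn1 were Osmr (0.276), Mgp (0.282) and Cfi (0.285), and nearest to Mmp2 were Rab31 (0.272), Col6a1 (0.273) and Cx3cr1 (0.280). For Timp1 they were Lgals3 (0.319), Serpina10 (0.340) and Fblim1 (0.342). The genes nearest to the CCN members were others again, Ier3 (0.303), Tmem98 (0.348) and Cdr2l (0.361) for Ccn1, and Kpnb1 (0.175), Cttnbp2nl (0.177) and Vcl (0.179) for Ccn2. No gene was among the 3 nearest of more than 1 member.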

How the data were processed

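Total RNA of 33 kidneys was extracted with Trizol, labelled with NuGEN Ovation reagents and hybridized to Affymetrix HT-MG-430 PM arrays, 1 array per kidney. The authors deposited log2 intensities normalized by RMA. The log base is not written in the table and was taken from the range of the values, 0.585 to 13.1 over the probe sets tested. The submitters' processing notes name RMA and Partek and give no versions. No detection calls were used, no count lies behind a value, dim probe sets compress changes, and precision is limited by the number of arrays.

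Of 45141 probe sets, 104 controls were left out and 45037 tested. A platform annotation gave 28898 of them 1 symbol, 551 several and 15588 none. A gene was named from probe sets with 1 symbol and represented by the brightest. All 33 arrays entered 1 model of 7 group means in limma 3.58.1 (lmFit and eBayes, R 4.3.3), with 26 residual degrees of freedom and Benjamini-Hochberg adjustment over all 45037 probe sets per contrast. Every adjusted p not called exact is from that fit, and a gene was called at an adjusted p under 0.05. Exact permutation tests served for pairs of members and the RNA control ratios. Group spreads differ, and the shared variance can understate the error of late weeks. On simulated data for week 9 against untreated, 44% of probe sets changed 1.5-fold, 90% at 2-fold and 100% at 4-fold were recovered. The simulation gave each probe set the same spread in all groups and changed only 50 probe sets per fold. The rates may therefore not hold for the late weeks here.

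The members and gene lists were chosen with earlier results of these data known. Named were all members, per list up to 4 genes with the largest change among those called at week 9 (week 7 where none was), Col1a2, Acta2, Havcr1 and Fbn2, and the 3 genes nearest to each member whose group means spanned more than 1. Umod, Col14a1, Gli1, Pdgfra and the list genes given with values that did not pass, or that passed at week 7 only, were chosen after their values were seen, as were the pair tests. Alternatives were another scaling, variance prior, weights, probe set rule, filter, covariate and set of arrays, and each array left out. After the data were seen, leaving out the 3 arrays whose adrenal marker mean was over 1 above the median array was added. Replicate numbers did not pair the arrays: over 93 pairs of arrays of the same number, correlations of deviations from group means ran from -0.35 to 0.27, with a median of -0.01. Promoters came from a RefSeq table of build GRCm38.p6, which names 6 of the 9 members. No build is given for the arrays in the sources used here.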

Additional observations from a re-analysis of the deposited data

How the results depend on the processing

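Over 5 comparisons (weeks 7 and 9 against untreated, week 9 against week 1, weeks 7 and 9 against weeks 1 to 3, and week 7 against week 5), no member changed direction in 450 values under other settings or in 549 with 1 array left out. Of these, 423 and 523 also kept their side of the threshold, 22 and 20 lost a call, and 5 and 6 gained one. The variance prior, the filter and fits of only the groups compared leave each change as it was, so its direction was fixed. The same holds without the 3 arrays high in adrenal markers in comparisons that use no array of weeks 1 to 3. The count of members called at week 9 against untreated fell from 6 to 2 when only those groups were fitted, a fit with fewer arrays behind the spread, and ran from 6 to 8 with 1 array left out. That against week 1 ran from 5 to 8, that of week 7 against untreated from 6 to 7, and that of week 7 against week 5 from 4, without week 7 replicate 1, to 7. In the last, Tnc missed the threshold without week 7 replicate 1 or 5 (adjusted p = 0.056 and 0.082), and Ccn1 with only the 2 groups fitted (adjusted p = 0.0694). Between weeks 9 and 1, Timp1 did so without week 9 replicate 1 (adjusted p = 0.0537), Mmp2 without week 9 replicate 1 or 4 (adjusted p = 0.0552 and 0.0509) and Timp2 without week 9 replicate 4 or 5 (adjusted p = 0.051 and 0.0605), whereas Mmp14 passed without week 9 replicate 3 (adjusted p = 0.0174). With a 2-fold requirement the late against early count fell from 9 to 5. With the beta-actin ratio in the model, 5 members were called at week 7 and 4 at week 9. In place of that ratio, the log2 ratio for Gapdh differed between treated and untreated kidneys by 0.00822 (exact permutation p = 0.885). With the replicate number as a block, 6 members were called at week 7 and 6 at week 9, and Timp2 lost its week 7 call (change 0.38, adjusted p = 0.0625). The block changed no other call. Without the 3 arrays high in adrenal markers, a setting chosen after seeing the data, 6 members were called at each late week against untreated, and Timp2 at week 7 (adjusted p = 0.0561) and Mmp2 between weeks 5 and 7 (adjusted p = 0.0517) missed the threshold. The causes of these shifts were not tested.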
